A study of Mus musculus with 18 samples.

Results

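Cholesterol and fatty acid synthesis was followed through 30 genes, selected by gene name from the 55469 genes analysed and grouped by their place in the pathway. They were 6 genes of the mevalonate steps, 3 from squalene to lanosterol, 8 from lanosterol to cholesterol, 5 regulators, 7 genes of fatty acid synthesis and the sterol carrier Stard4. RNA-Seq of 18 mouse libraries gave their expression as FPKM, the fragments assigned to a gene per kilobase of transcript and per 1000000 mapped fragments, which allows comparison between genes as a level per length. The question was whether these genes differed between cells kept pluripotent by a transgene for c-Myc, Klf4, Oct4 and Sox2 (OSKM) and cells kept in 2i with LIF.

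All cells carried Tet-On-OSKM: the OSKM genes sit at Col1a1 as 1 cassette and are switched on by doxycycline (DOX) through the M2rtTA protein, which is expressed from Rosa26. OSKM-ESCs were embryonic stem cells moved from 2iL medium to N2B27 with DOX and sampled as 2 cultures each on days 18, 25 and 38. The matching 2 cultures per day of 2iL-ESCs came from N2B27 with the MEK inhibitor PD0325901, the GSK3 inhibitor CHIR99021 and LIF. Both came from 1 ESC line with an additional Oct4-GFP reporter, of strain (C57BL/6 x 129S4/SvJae)F1 crossed to (CBA/CaJ X C57BL/6J)F2, derived and grown on mitomycin-treated feeder fibroblasts. OSKM-iPSC clones 1 and 3 (passages 7 and 6) were reprogrammed and kept in N2B27 with DOX. 2iL-iPSC clones 3 and 6 (passages 2 and 3) were reprogrammed in 2iL with DOX. For their daily culture the labels name N2B27 and DOX, while the study's methods name 2iL without DOX, so the agent they last received is uncertain. MEF cells, the fibroblasts that were reprogrammed, were 2 libraries at passage 4 in DMEM with 10% FBS, which is the one group grown in serum. iPSCs and MEF cells were of strain (C57BL/6 x 129S4/SvJae)F1. For reprogramming in either medium, MEF cells were seeded onto feeder cells, as the study's methods state. In ESCs, DOX with the OSKM transgene came together with the absence of the inhibitors and LIF, and no library separates them. A difference between media below covers all of these, which cannot be told apart. Passage and medium cannot be told apart in the iPSCs, and serum and cell type cannot be told apart in MEF cells.

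Cells build cholesterol from acetyl-CoA through mevalonate, the isoprenoid farnesyl pyrophosphate, squalene and lanosterol, and they build fatty acids from the same acetyl-CoA through malonyl-CoA. Transcription of both pathways is driven by the sterol regulatory element binding proteins, encoded by Srebf1 and Srebf2. Their precursors are bound by Scap, which Insig1 and Insig2 retain in the endoplasmic reticulum. When membrane sterol falls, Scap escorts the precursors to the Golgi, where they are cleaved. Serum supplies lipoprotein cholesterol. The N2B27 of this study was a modified one with serum replacement and albumin, and its lipid content was not measured here.

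RefSeq promoter windows on GRCm38.p6, from 250 bases before to 50 bases after the start, were matched for 24 of the 30 genes. The sterol regulatory element TCACNCCAC occurred on either strand in 1 of the 24 (4.17%), against 1.24% of 32851 windows, the one being that of Hmgcs1. An E-box CACGTG lay in 4 windows (16.7%, against 7.15% of all windows), those of Hsd17b7, Sc5d, Insig1 and Scap. The NF-Y box CCAAT was found in 20 windows (83.3% against 37.4%) and the Sp1 box GGGCGG in 18 (75% against 35.7%). Each of the 24 genes gave 1 window, the nearest to its start. All 32851 windows include several of some genes, so the shares come from unlike sets. The windows of Acaca and Tm7sf2, counted among the 24, lie inside the gene as the files bound it. These counts describe letters in the windows and identify no bound site. The parts of 5 windows that lie before the gene's start are shown, chosen after the values were seen. They are Hmgcs1 for its sterol regulatory element, Hsd17b7 and Sc5d as genes with an E-box that were higher in OSKM-ESCs, Mvk for its CCAAT boxes, and Acss2 as a gene that was lower. Capitals mark TCACNCCAC, CACGTG and CCAAT on either strand, so that ATTGG is CCAAT on the other strand.
Hmgcs1, chr13:119690101-119690350, plus strand: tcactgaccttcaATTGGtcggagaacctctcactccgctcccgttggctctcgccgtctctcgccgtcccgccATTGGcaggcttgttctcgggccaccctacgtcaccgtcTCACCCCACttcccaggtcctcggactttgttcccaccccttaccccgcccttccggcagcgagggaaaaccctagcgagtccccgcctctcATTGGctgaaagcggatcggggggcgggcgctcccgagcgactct
Mvk, chr5:114444019-114444268, plus strand: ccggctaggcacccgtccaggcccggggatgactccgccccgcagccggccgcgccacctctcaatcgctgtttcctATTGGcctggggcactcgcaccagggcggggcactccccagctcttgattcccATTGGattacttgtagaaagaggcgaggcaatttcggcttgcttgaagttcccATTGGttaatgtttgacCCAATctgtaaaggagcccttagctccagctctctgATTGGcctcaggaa
Hsd17b7, chr1:169969242-169969455, minus strand: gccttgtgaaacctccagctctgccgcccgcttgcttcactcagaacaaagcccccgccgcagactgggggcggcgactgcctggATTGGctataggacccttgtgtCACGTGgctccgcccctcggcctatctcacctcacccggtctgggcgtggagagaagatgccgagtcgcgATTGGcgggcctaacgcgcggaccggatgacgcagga
Sc5d, chr9:42264301-42264550, minus strand: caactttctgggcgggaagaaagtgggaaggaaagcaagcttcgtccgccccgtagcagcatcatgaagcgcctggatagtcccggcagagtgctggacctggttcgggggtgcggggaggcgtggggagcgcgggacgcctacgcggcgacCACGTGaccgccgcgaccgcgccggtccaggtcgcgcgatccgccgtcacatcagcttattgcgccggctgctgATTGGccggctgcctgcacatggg
Acss2, chr2:155517793-155517947, plus strand: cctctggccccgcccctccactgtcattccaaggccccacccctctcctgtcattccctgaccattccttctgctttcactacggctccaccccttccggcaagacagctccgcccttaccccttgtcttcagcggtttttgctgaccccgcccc
Hmgcs1 alone among them held the sterol regulatory element, Hsd17b7 and Sc5d each held an E-box, and Mvk held 5 CCAAT boxes. The Acss2 stretch held none of the marked motifs, but it is cut at the gene's start. The full Acss2 window held 1 CCAAT box, at position -73, in the part not shown.

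Marker genes were compared with the labels. The summed FPKM of 6 pluripotency markers (Nanog, Zfp42, Esrrb, Tdgf1, Dppa5a and Sall4) was 458 to 597 in OSKM-ESCs, 1822 to 2406 in 2iL-ESCs, 431 and 893 in OSKM-iPSCs, 1993 and 2323 in 2iL-iPSCs, and 0 and 0.466 in MEF cells. The sum of 9 fibroblast markers was 16.2 to 29.2 in OSKM-ESCs, 3.20 to 5.63 in 2iL-ESCs, 70.7 and 5.57 in OSKM-iPSC clones 1 and 3, 3.64 and 2.33 in 2iL-iPSCs, and 1136 and 955 in MEF cells. Of the 9, Col1a2, Col3a1, Thy1, Twist1, Postn and Dcn were higher in OSKM-ESCs (limma). Among 5 neural markers, Sox1 was listed at 0 in every library while Pax6, Nes and Map2 were higher and Tubb3 lower in OSKM-ESCs. Their sum was 42.8 to 61.8 in OSKM-ESCs, 50.6 to 72.7 in 2iL-ESCs, 58.1 and 26.4 in OSKM-iPSCs, 50.4 and 69.1 in 2iL-iPSCs, and 41.2 and 42.9 in MEF cells. The sum of 5 endoderm markers was 0.584 to 6.63 in OSKM-ESCs and highest on day 38 (4.95 and 6.63), against 0.342 to 1.67 in 2iL-ESCs, 1.18 and 0.459 in OSKM-iPSCs, 0.674 and 1.18 in 2iL-iPSCs, and 7.02 and 6.44 in MEF cells. Among the endoderm markers, Foxa2 was higher in OSKM-ESCs (1.01 ± 0.24 SE, adjusted p = 0.00415, limma) and Sox17 did not pass (adjusted p = 0.165). Gata4, Gata6 and Afp were too low in ESCs to be tested. Most fibroblast markers thus moved with the medium in ESCs, while neural markers moved both ways and the neural and endoderm sums overlapped between media. In iPSCs the fibroblast sum was raised mainly in OSKM-iPSC clone 1. The part of other cell types in the differences given here was not tested. In bulk RNA, a change in the number of cells of a type and a change in RNA per cell cannot be told apart. The files hold no read counts. As a stand-in for depth, mean base coverage divided by FPKM ran from 2.634 to 3.208 over the libraries (median over genes above 10 FPKM in every library).

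**Figure D1:**
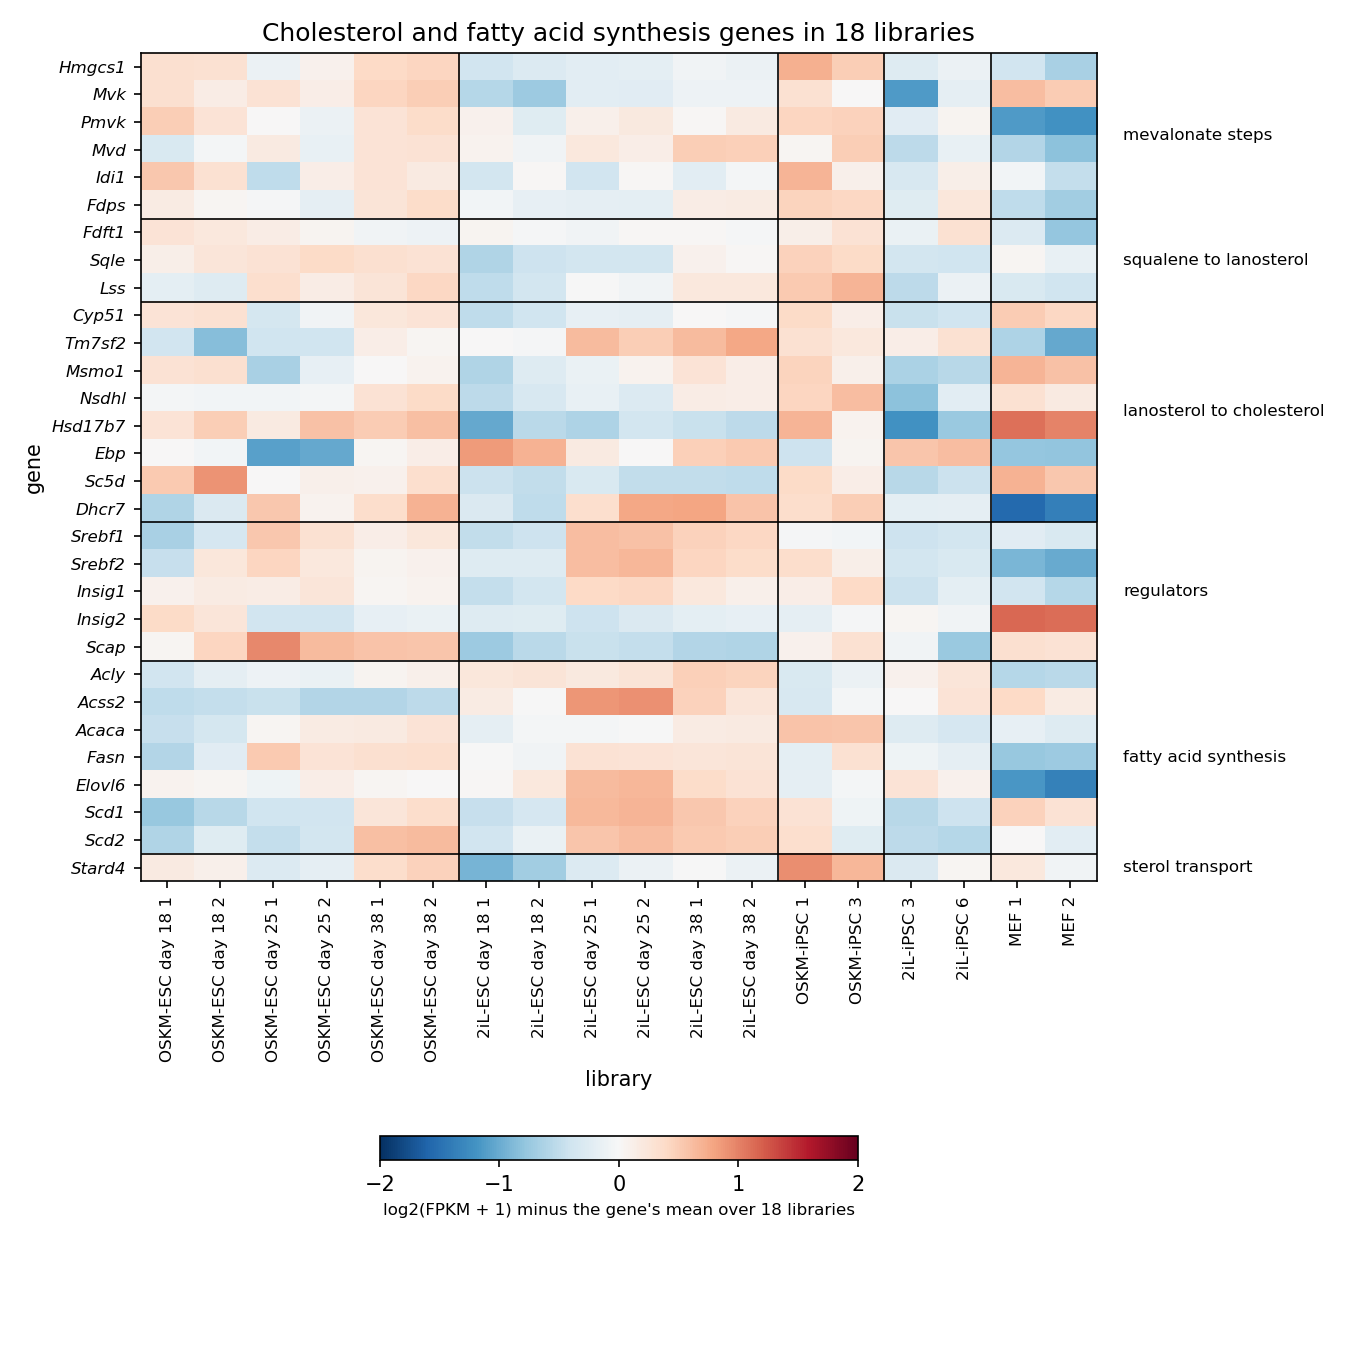
Expression of the 30 genes (rows, by role) in the 18 libraries (columns, by group), as log2(FPKM + 1) minus the gene's mean over all libraries (colour, log2 units). OSKM-ESCs stood above 2iL-ESCs for Scap, Hsd17b7 and Sc5d and below them for Acss2 and Acly, and MEF cells stood apart by low Dhcr7, Pmvk and Elovl6 and high Insig2.

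Most of the sterol synthesis genes that passed the test in ESCs were higher in OSKM medium, and those of fatty acid synthesis that passed were lower. Over all 3 days, 11 of the 30 genes were higher and 6 lower in OSKM-ESCs relative to 2iL-ESCs, and 13 did not pass (adjusted p under 0.05, limma on log2(FPKM + 1) with day as a covariate). Of all 14016 genes tested, 29.5% were higher and 24.4% lower at the same threshold, so the counts of the 30 genes lay near those of genes at large. Their median log2 difference was 0.08, against 0.03 for all genes tested. Split by role, 10 of the 18 genes from the mevalonate steps to Stard4 were higher and 2 lower, and of the 7 genes of fatty acid synthesis 0 were higher and 4 lower. All 6 OSKM-ESC libraries lay above all 6 2iL-ESC libraries for 5 genes (Mvk, Sqle, Hsd17b7, Sc5d and Scap), as for 14.6% of all genes. They lay below them for 2 (Acly and Acss2), as for 12% of all genes. Leaving out day 18, or day 38, reduced the number of higher genes to 7, and without culture 2 of OSKM-ESCs on day 18 the number of lower genes was 10.

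**Figure D2:**
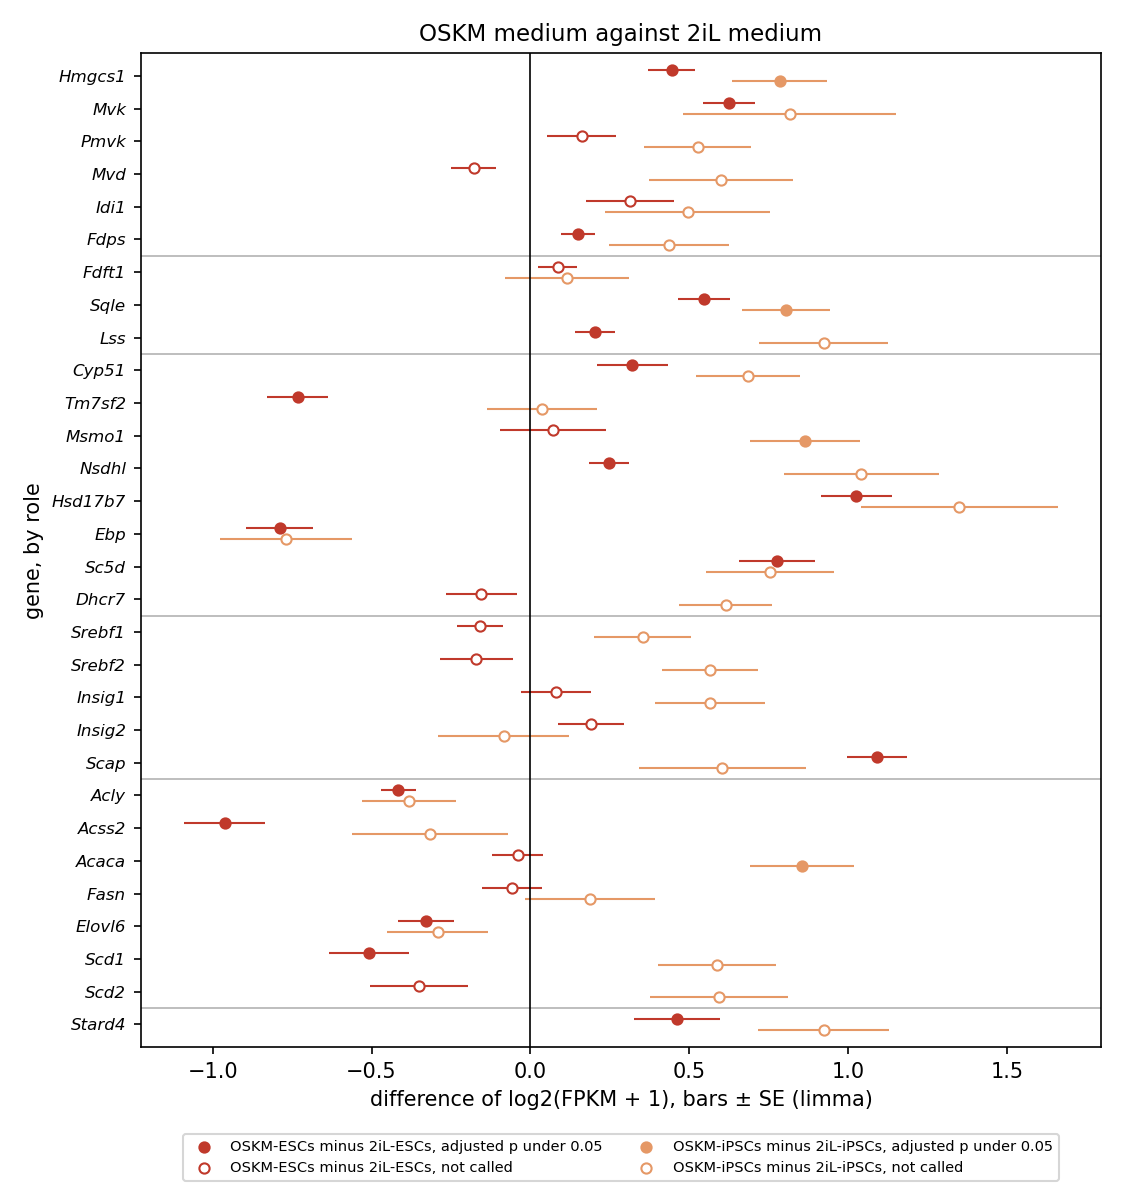
Difference between OSKM and 2iL cells for each of the 30 genes (rows, by role) in ESCs and in iPSCs, in log2(FPKM + 1). Bars are ± SE from limma, and filled symbols mark an adjusted p under 0.05. In ESCs the largest differences were those of Scap (1.09) and Hsd17b7 (1.03) upwards and Acss2 (-0.96) downwards, and in iPSCs most points lay above 0.

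The mevalonate steps lead from acetyl-CoA to farnesyl pyrophosphate, and 3 of their 6 genes were higher in OSKM-ESCs and 0 lower. Hmgcs1, which makes HMG-CoA, stood in OSKM-ESCs at FPKM values of 120.3 and 119 on day 18, 88.5 and 102 on day 25, and 126 and 129 on day 38, and in 2iL-ESCs at 73.1 and 79.3 on day 18, 82.6 and 83.3 on day 25, and 91.4 and 88.4 on day 38. Its log2 difference was 0.44 ± 0.07 SE, adjusted p = 0.000318, and within each day both OSKM-ESC cultures were higher. It stood at 157 and 135 in the OSKM-iPSC clones, 80.2 and 88.1 in the 2iL-iPSC clones, and 72.7 and 60.5 in MEF cells. Mvk, which phosphorylates mevalonate, stood in OSKM-ESCs at FPKM values of 24.3 and 21.7 on day 18, 23.8 and 21.3 on day 25, and 26.6 and 27.8 on day 38, and in 2iL-ESCs at 12.7 and 11.3 on day 18, 16.6 and 16.5 on day 25, and 18.0 and 17.9 on day 38. Every OSKM-ESC culture exceeded every 2iL-ESC culture, and the difference was 0.63 ± 0.08 SE, adjusted p = 4.73e-05. Its level was 24.2 and 19.5 in the OSKM-iPSC clones, 8.33 and 16.9 in the 2iL-iPSC clones, and 30.2 and 28.0 in MEF cells, so that MEF cells held the highest values and 2iL-iPSC clone 3 the lowest. Pmvk, the next kinase, did not pass over all days (0.16 ± 0.11 SE, adjusted p = 0.232), although the difference depended on the day. Pmvk stood in OSKM-ESCs at FPKM values of 36.9 and 31.6 on day 18, 26.0 and 23.7 on day 25, and 31.6 and 33.7 on day 38, and in 2iL-ESCs at 27.4 and 21.7 on day 18, 27.9 and 29.9 on day 25, and 26.4 and 29.3 on day 38. OSKM-ESCs were above 2iL-ESCs on days 18 and 38 and below them on day 25. The other groups gave 35.1 and 35.9 in the OSKM-iPSC clones, 21.9 and 27.0 in the 2iL-iPSC clones, and 11.3 and 10.6 in MEF cells. Fdps, which makes farnesyl pyrophosphate, had the smallest difference of those that passed, 0.15 ± 0.05 SE, adjusted p = 0.0327, with ranges of 131 to 191 FPKM with a median of 160.5 in OSKM-ESCs and 130.0 to 167 FPKM with a median of 138 in 2iL-ESCs. That call was lost under median-ratio scaling, where its adjusted p was 0.316. Mvd (-0.18 ± 0.07 SE, adjusted p = 0.0501), which makes isopentenyl pyrophosphate, and Idi1 (0.31 ± 0.14 SE, adjusted p = 0.0756), its isomerase, did not pass.

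Of the enzymes from squalene to lanosterol, 2 of 3 were higher in OSKM-ESCs. Sqle, the squalene epoxidase and a rate-limiting enzyme, stood in OSKM-ESCs at FPKM values of 50.9 and 55.3 on day 18, 57.3 and 61.5 on day 25, and 58.5 and 57.2 on day 38, and in 2iL-ESCs at 30.5 and 34.7 on day 18, 36.0 and 36.1 on day 25, and 49.6 and 47.6 on day 38. All OSKM-ESC cultures were above all 2iL-ESC cultures, by 0.55 ± 0.08 SE, adjusted p = 0.000132, and the gap was narrowest on day 38. Its remaining values were 65.0 and 61.5 in the OSKM-iPSC clones, 36.2 and 35.4 in the 2iL-iPSC clones, and 47.9 and 42.3 in MEF cells. Lss, which closes the sterol ring, was higher by 0.20 ± 0.06 SE, adjusted p = 0.0174, a call lost under median-ratio scaling (adjusted p = 0.138), and Fdft1, the squalene synthase, did not pass (0.09 ± 0.06 SE, adjusted p = 0.268).

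From lanosterol to cholesterol, 4 of 8 genes were higher and 2 lower in OSKM-ESCs. Hsd17b7, a sterol ketoreductase, had the largest difference of the sterol enzymes. Hsd17b7 stood in OSKM-ESCs at FPKM values of 6.96 and 8.22 on day 18, 6.46 and 8.86 on day 25, and 8.32 and 8.93 on day 38, and in 2iL-ESCs at 2.25 and 3.52 on day 18, 3.27 and 4.10 on day 25, and 3.82 and 3.57 on day 38. No values of the media overlapped, and the difference was 1.03 ± 0.11 SE, adjusted p = 1.13e-05. The other groups had 9.52 and 5.94 in the OSKM-iPSC clones, 1.84 and 2.95 in the 2iL-iPSC clones, and 13.1 and 12.1 in MEF cells. MEF cells thus had the highest level, OSKM cells an intermediate one, and 2iL cells the lowest.

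Sc5d, the lathosterol desaturase, stood in OSKM-ESCs at FPKM values of 12.4 and 16.2 on day 18, 8.35 and 8.99 on day 25, and 8.79 and 10.6 on day 38, and in 2iL-ESCs at 5.86 and 5.58 on day 18, 6.47 and 5.61 on day 25, and 5.60 and 5.55 on day 38. It was higher by 0.78 ± 0.12 SE, adjusted p = 0.000176, without overlap, most on day 18. It amounted to 11.1 and 9.18 in the OSKM-iPSC clones, 5.31 and 5.84 in the 2iL-iPSC clones, and 14.0 and 12.5 in MEF cells. Cyp51, which removes a methyl group from lanosterol, stood in OSKM-ESCs at FPKM values of 40.2 and 41.1 on day 18, 25.6 and 31.3 on day 25, and 38.7 and 40.2 on day 38, and in 2iL-ESCs at 22.9 and 24.8 on day 18, 29.4 and 28.8 on day 25, and 33.1 and 32.5 on day 38. It was higher by 0.32 ± 0.11 SE, adjusted p = 0.0283, but on day 25 the media overlapped, and without day 18 it did not pass (adjusted p = 0.34). Its values elsewhere were 43.4 and 36.2 in the OSKM-iPSC clones, 23.8 and 24.7 in the 2iL-iPSC clones, and 47.3 and 44.4 in MEF cells. Msmo1, which acts after Cyp51, stood in OSKM-ESCs at FPKM values of 63.7 and 65.1 on day 18, 32.6 and 46.2 on day 25, and 52.1 and 54.6 on day 38, and in 2iL-ESCs at 33.6 and 43.1 on day 18, 46.9 and 54.4 on day 25, and 62.4 and 57.1 on day 38. It did not pass over all days (0.07 ± 0.17 SE, adjusted p = 0.743), with the OSKM-ESC cultures above those in 2iL on day 18 and below them on days 25 and 38. The further levels were 70.6 and 55.5 in the OSKM-iPSC clones, 32.9 and 35.0 in the 2iL-iPSC clones, and 83.7 and 78.6 in MEF cells. Nsdhl, a sterol dehydrogenase, was higher by 0.25 ± 0.06 SE, adjusted p = 0.00551.

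Ebp and Tm7sf2 had lower levels in OSKM medium. Ebp, which isomerizes a sterol double bond, stood in OSKM-ESCs at FPKM values of 17.3 and 16.6 on day 18, 7.57 and 7.96 on day 25, and 17.7 and 19.1 on day 38, and in 2iL-ESCs at 31.8 and 28.5 on day 18, 19.6 and 17.4 on day 25, and 24.4 and 25.3 on day 38. The difference was -0.79 ± 0.11 SE, adjusted p = 6.05e-05, and the 2 OSKM-ESC cultures of day 25 were the lowest of all ESCs. It stood at 12.7 and 18.0 in the OSKM-iPSC clones, 25.9 and 27.1 in the 2iL-iPSC clones, and 9.72 and 9.53 in MEF cells. Tm7sf2, a sterol reductase whose step is shared with the lamin B receptor, was lower, with a difference of -0.73 ± 0.10 SE, adjusted p = 4.67e-05, with ranges of 6.26 to 13.4 FPKM with a median of 9.05 in OSKM-ESCs and 11.9 to 21.5 FPKM with a median of 18.5 in 2iL-ESCs. Dhcr7, a late reductase, did not pass (-0.15 ± 0.11 SE, adjusted p = 0.274). Stard4, a carrier of free cholesterol between membranes, was higher in OSKM-ESCs by 0.46 ± 0.13 SE, adjusted p = 0.0122. Stard4 stood in OSKM-ESCs at FPKM values of 11.9 and 11.3 on day 18, 8.54 and 9.13 on day 25, and 13.7 and 14.9 on day 38, and in 2iL-ESCs at 5.06 and 6.13 on day 18, 8.52 and 9.58 on day 25, and 10.4 and 9.57 on day 38. The media overlapped on day 25, and without day 18 its adjusted p was 0.147. Its levels were 20.9 and 17.2 in the OSKM-iPSC clones, 8.42 and 10.8 in the 2iL-iPSC clones, and 12.3 and 9.96 in MEF cells, the OSKM-iPSC clones holding the 2 highest of all 18 libraries.

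Among the 5 regulators, Scap alone passed in ESCs. Scap, the escort of the SREBP precursors out of the endoplasmic reticulum, stood in OSKM-ESCs at FPKM values of 17.8 and 23.8 on day 18, 34.6 and 27.4 on day 25, and 26.3 and 25.8 on day 38, and in 2iL-ESCs at 10.1 and 11.6 on day 18, 12.5 and 12.2 on day 25, and 11.3 and 11.1 on day 38. It was higher by 1.09 ± 0.10 SE, adjusted p = 1.87e-06, and no values overlapped. On the log2(FPKM + 1) scale this was the largest difference of the 30 genes, but the scale understates low genes such as Hsd17b7 and Acss2. The other groups had 18.5 and 21.6 in the OSKM-iPSC clones, 16.4 and 9.95 in the 2iL-iPSC clones, and 22.0 and 21.4 in MEF cells, so that 2iL-iPSC clone 3 came close to OSKM-iPSC clone 1. Srebf1, whose product favours fatty acid genes, stood in OSKM-ESCs at FPKM values of 15.4 and 19.4 on day 18, 36.5 and 30.9 on day 25, and 27.4 and 29.3 on day 38, and in 2iL-ESCs at 17.4 and 18.4 on day 18, 38.5 and 37.9 on day 25, and 34.4 and 33.2 on day 38. Its difference was -0.16 ± 0.07 SE, adjusted p = 0.0804. It was at 24.3 and 23.9 in the OSKM-iPSC clones, 18.4 and 18.9 in the 2iL-iPSC clones, and 21.0 and 19.8 in MEF cells. Srebf2, whose product favours sterol genes, stood in OSKM-ESCs at FPKM values of 56.4 and 91.4 on day 18, 105 and 89.9 on day 25, and 81.3 and 83.0 on day 38, and in 2iL-ESCs at 65.0 and 65.2 on day 18, 121 and 124 on day 25, and 105 and 101 on day 38. Its difference was -0.17 ± 0.12 SE, adjusted p = 0.234, with a wide gap between the 2 OSKM-ESC cultures of day 18. The further values were 99.7 and 84.2 in the OSKM-iPSC clones, 60.3 and 62.8 in the 2iL-iPSC clones, and 40.7 and 38.3 in MEF cells.

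Insig1 and Insig2 retain Scap in the endoplasmic reticulum. Insig1 stood in OSKM-ESCs at FPKM values of 54.2 and 57.2 on day 18, 56.6 and 60.1 on day 25, and 52.0 and 53.6 on day 38, and in 2iL-ESCs at 36.1 and 39.2 on day 18, 67.2 and 68.1 on day 25, and 58.8 and 54.4 on day 38. Over all days its difference was 0.08 ± 0.11 SE, adjusted p = 0.559. OSKM-ESCs stayed within a narrow range while 2iL-ESCs were low on day 18 and high on day 25. The other groups gave 55.5 and 67.1 in the OSKM-iPSC clones, 37.6 and 44.4 in the 2iL-iPSC clones, and 38.7 and 34.0 in MEF cells. Insig2 stood in OSKM-ESCs at FPKM values of 8.10 and 7.26 on day 18, 4.32 and 4.35 on day 25, and 5.19 and 5.34 on day 38, and in 2iL-ESCs at 4.81 and 4.87 on day 18, 4.25 and 4.67 on day 25, and 5.07 and 5.21 on day 38. The difference of Insig2 was 0.19 ± 0.10 SE, adjusted p = 0.145, and the 2 OSKM-ESC cultures of day 18 were the highest of the ESCs. Its levels were 5.12 and 5.89 in the OSKM-iPSC clones, 6.17 and 5.60 in the 2iL-iPSC clones, and 14.5 and 14.0 in MEF cells, and MEF cells had the highest level of all groups.

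Of the 7 fatty acid synthesis genes, 4 were lower in OSKM-ESCs and 0 higher. Acss2, which makes acetyl-CoA from acetate, stood in OSKM-ESCs at FPKM values of 2.18 and 2.24 on day 18, 2.31 and 2.02 on day 25, and 2.02 and 2.13 on day 38, and in 2iL-ESCs at 4.06 and 3.47 on day 18, 7.32 and 7.497 on day 25, and 5.21 and 4.36 on day 38. It was lower, with a difference of -0.96 ± 0.13 SE, adjusted p = 5.59e-05, without overlap, and the difference was widest on day 25. It was at 2.63 and 3.39 in the OSKM-iPSC clones, 3.55 and 4.43 in the 2iL-iPSC clones, and 4.95 and 4.03 in MEF cells. Acly, which makes acetyl-CoA from citrate, was lower, with a difference of -0.42 ± 0.05 SE, adjusted p = 4.54e-05, with 96.8 to 136 FPKM with a median of 117 in OSKM-ESCs and 145 to 176 FPKM with a median of 152 in 2iL-ESCs, also without overlap.

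Scd1 and Scd2 are desaturases that make monounsaturated fatty acids, and since they are similar in sequence, reads of one may be lost or assigned to the other. Scd1 stood in OSKM-ESCs at FPKM values of 21.4 and 24.5 on day 18, 27.4 and 27.7 on day 25, and 43.5 and 46.9 on day 38, and in 2iL-ESCs at 26.2 and 28.97 on day 18, 57.9 and 59.4 on day 25, and 53.6 and 50.7 on day 38. Scd1 was lower, with a difference of -0.51 ± 0.13 SE, adjusted p = 0.00506. It stood elsewhere at 44.9 and 34.6 in the OSKM-iPSC clones, 24.6 and 27.4 in the 2iL-iPSC clones, and 50.6 and 45.0 in MEF cells. Scd2 stood in OSKM-ESCs at FPKM values of 111 and 143 on day 18, 120.3 and 131 on day 25, and 256 and 262 on day 38, and in 2iL-ESCs at 129 and 153 on day 18, 248 and 258 on day 25, and 243 and 238 on day 38. Scd2 did not pass over all days (-0.35 ± 0.15 SE, adjusted p = 0.0734), and on day 38 OSKM-ESCs were at or above the level of 2iL-ESCs. Its other values were 213 and 142 in the OSKM-iPSC clones, 117 and 113 in the 2iL-iPSC clones, and 169.6 and 145 in MEF cells.

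Elovl6, which elongates palmitate, stood in OSKM-ESCs at FPKM values of 34.0 and 33.1 on day 18, 30.4 and 35.6 on day 25, and 33.2 and 32.4 on day 38, and in 2iL-ESCs at 33.0 and 37.5 on day 18, 50.4 and 51.6 on day 25, and 42.0 and 39.5 on day 38. It was lower, with a difference of -0.33 ± 0.09 SE, adjusted p = 0.00735, with the widest gap on day 25, and without day 25 it did not pass (adjusted p = 0.064). It amounted to 28.5 and 31.3 in the OSKM-iPSC clones, 39.4 and 34.3 in the 2iL-iPSC clones, and 13.8 and 11.98 in MEF cells. Acaca, which makes malonyl-CoA in the committed step of the pathway, stood in OSKM-ESCs at FPKM values of 8.99 and 9.84 on day 18, 13.1 and 14.4 on day 25, and 14.6 and 15.6 on day 38, and in 2iL-ESCs at 11.1 and 12.4 on day 18, 12.4 and 12.7 on day 25, and 14.5 and 14.6 on day 38. It did not pass over all days (-0.04 ± 0.08 SE, adjusted p = 0.701). The other groups had 19.5 and 19.3 in the OSKM-iPSC clones, 10.6 and 9.97 in the 2iL-iPSC clones, and 11.3 and 10.5 in MEF cells, the 2 OSKM-iPSC clones being the highest of all libraries. Fasn, the fatty acid synthase, did not pass either (-0.06 ± 0.09 SE, adjusted p = 0.635), with 49.5 to 109 FPKM with a median of 92.7 in OSKM-ESCs and 71.8 to 91.9 FPKM with a median of 89.8 in 2iL-ESCs.

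**Figure D3:**
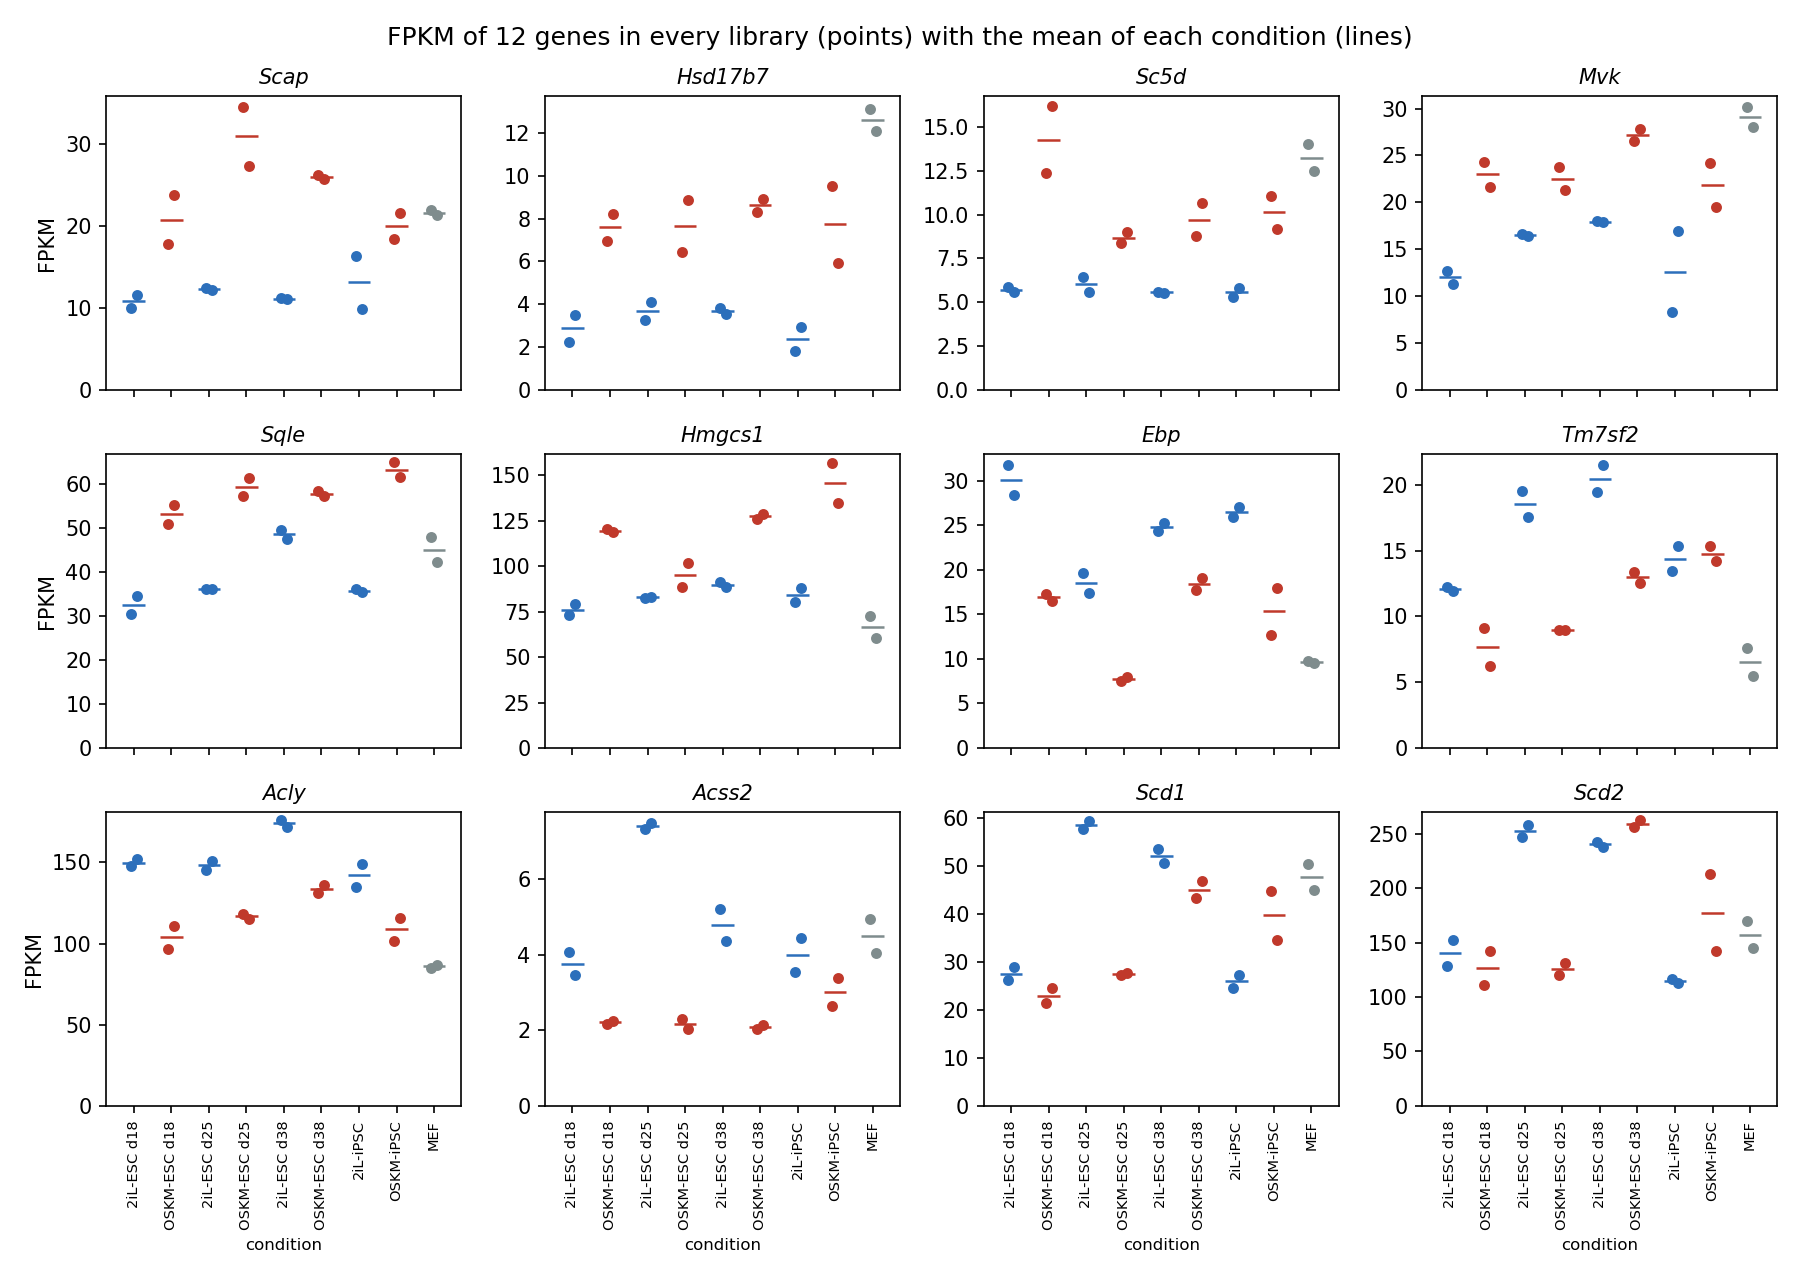
FPKM of 12 of the genes (panels, linear axes from 0) in every library (points) of the 9 conditions, with the mean of each condition as a line, 2iL conditions in blue, OSKM conditions in red and MEF cells in grey. For Scap, Hsd17b7, Sc5d, Mvk and Sqle all red ESC points lie above all blue ESC points, and for Acly and Acss2 below them.

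The difference between media depended on the day for 16 of the 30 genes (F test of the medium by day interaction, limma, adjusted p under 0.05), where 37.9% of all genes tested passed. They included 5 of the 7 fatty acid synthesis genes (Acss2, Acaca, Scd1, Scd2 and Elovl6), Insig1 and Insig2, Stard4, and 8 sterol enzymes (Hmgcs1, Mvk, Pmvk, Sqle, Cyp51, Msmo1, Ebp and Sc5d). The log2 difference of Msmo1 was 0.74 on day 18, -0.37 on day 25 and -0.16 on day 38 (interaction adjusted p = 0.00854). For Cyp51 it was 0.74 on day 18, -0.04 on day 25 and 0.26 on day 38 (adjusted p = 0.00383), and for Stard4 0.94 on day 18, -0.03 on day 25 and 0.48 on day 38 (adjusted p = 0.00257). In fatty acid synthesis, Scd1 gave -0.26 on day 18, -1.06 on day 25 and -0.20 on day 38 (adjusted p = 0.000882), and Scd2 -0.16 on day 18, -1.004 on day 25 and 0.11 on day 38 (adjusted p = 0.00189). Day 25 thus held the lowest value of each of these 5 genes. The median over the 30 genes was 0.23 on day 18, -0.04 on day 25 and 0.06 on day 38, against 0.07, -0.04 and 0.07 for all genes.

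**Figure D4:**
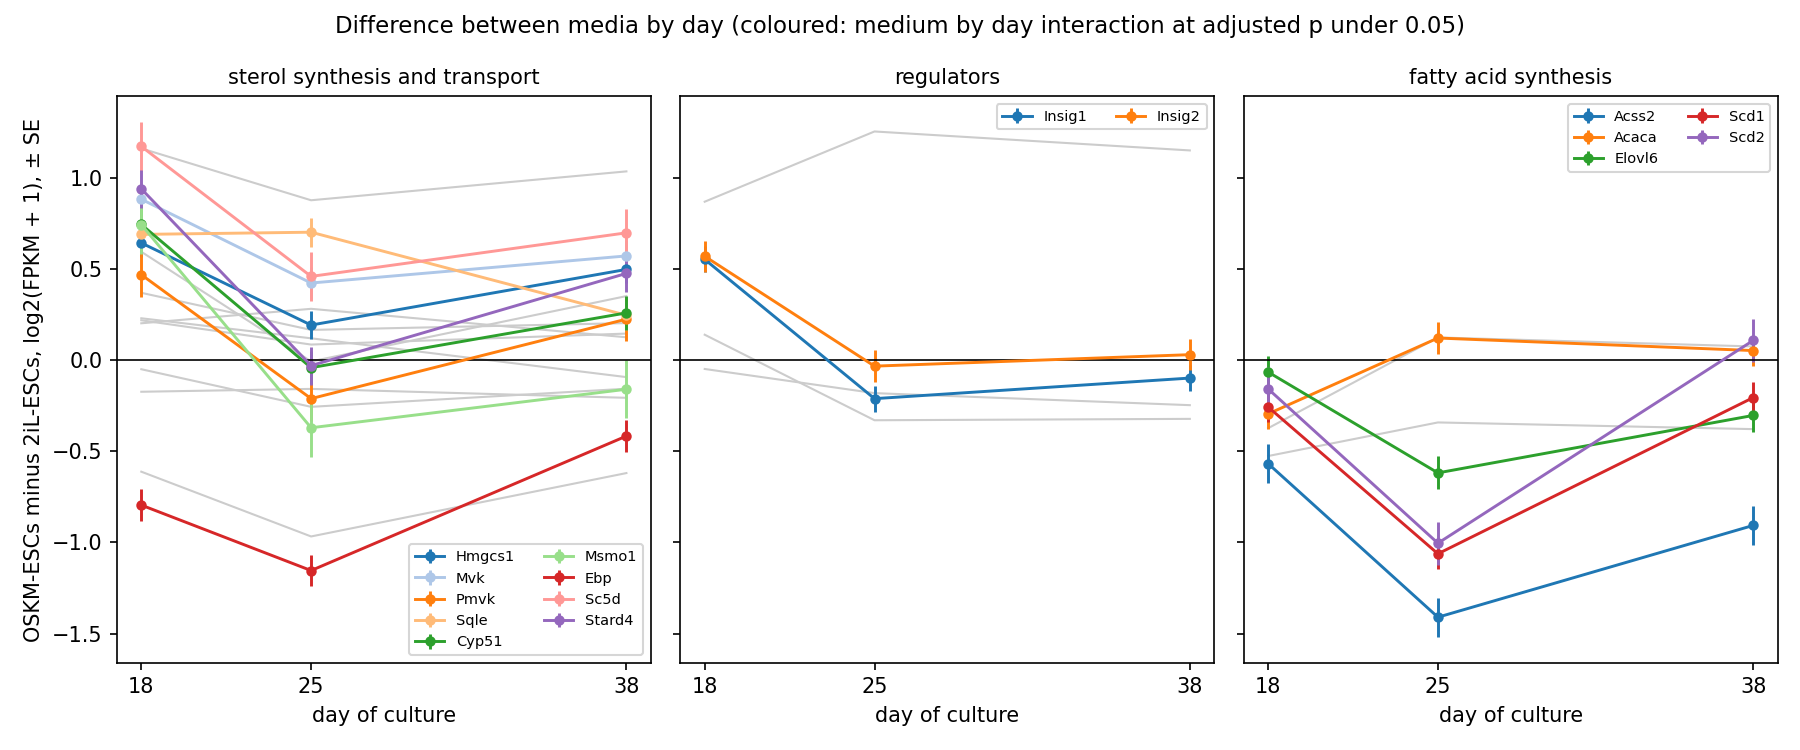
Difference between OSKM-ESCs and 2iL-ESCs in log2(FPKM + 1) (vertical axis) on days 18, 25 and 38 (horizontal axis), for sterol genes, regulators and fatty acid genes, with bars of ± SE. The 16 coloured genes passed the interaction test and grey lines are the others. Most coloured lines dip on day 25, where Acss2 reached -1.41 and Scd1 -1.06.

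Levels also moved with time within a medium. Between days, 17 of the 30 genes differed in OSKM-ESCs (38.6% of all genes) and 23 in 2iL-ESCs (50.8% of all genes, by limma F tests). In 2iL-ESCs, 3 of the 5 regulators passed and rose from day 18 to day 25, Srebf1 by 1.05 ± 0.11 SE, Srebf2 by 0.90 ± 0.18 SE and Insig1 by 0.83 ± 0.07 SE on the log2 scale, with adjusted p over the 3 days of 0.000267, 0.000283 and 0.000811. Insig2 differed by -0.10 ± 0.09 SE over that interval (adjusted p = 0.274) and Scap by 0.17 ± 0.14 SE (adjusted p = 0.238), and neither passed. In OSKM-ESCs, Srebf1 also rose, by 0.92 ± 0.11 SE (adjusted p = 0.00675), and Srebf2 did not pass (adjusted p = 0.262). In 2iL-ESCs, Scd1 rose by 1.06 ± 0.08 SE (adjusted p = 0.000388) and Acss2 by 0.82 ± 0.11 SE (adjusted p = 0.00431) from day 18 to day 25. In OSKM-ESCs, Insig1 (adjusted p = 0.464) and Acss2 (adjusted p = 0.91) did not pass, while Scd2 rose by 1.04 ± 0.12 SE from day 25 to day 38 (adjusted p over the 3 days = 0.00248) and Ebp fell from day 18 to day 25 and rose again (adjusted p = 0.000852). Time in culture and the occasion of collection cannot be told apart. Without a filter on low values, 9 genes in place of 17 passed in OSKM-ESCs.

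In iPSCs, 25 of the 30 genes had a higher mean in OSKM-iPSCs than in 2iL-iPSCs, and few of them passed the test. The daily medium of the 2iL-iPSCs is uncertain, as given above. The 30 genes had a median log2 difference of 0.59 against 0.09 for all genes tested, and 4 were higher and 0 lower at the threshold, where 5% of all genes were higher and 2.96% lower. At an unadjusted p under 0.05, 17 were higher and 2 lower, where 18.2% of all genes were higher and 11.1% lower. The 4 genes were Hmgcs1 (0.78 ± 0.15 SE, adjusted p = 0.0403), Sqle (0.81 ± 0.14 SE, adjusted p = 0.0331), Msmo1 (0.86 ± 0.17 SE, adjusted p = 0.0444) and Acaca (0.86 ± 0.16 SE, adjusted p = 0.0407). Larger differences that did not pass were those of Hsd17b7 (1.35 ± 0.31 SE, adjusted p = 0.0576), Nsdhl (1.04 ± 0.24 SE, adjusted p = 0.0602), Lss (0.92 ± 0.20 SE, adjusted p = 0.054) and Stard4 (0.92 ± 0.21 SE, adjusted p = 0.0552). With each clone left out in turn, the median over the 30 genes was 0.481 to 0.67, against 0.0721 to 0.116 for all genes. Without a filter on low values 0 passed. When all 9 conditions shared one fit, 21 were higher and 3 lower, and the medians stayed at 0.59 and 0.09. The shares of all genes that passed in these settings are not given here, so these counts cannot set the 30 genes apart from genes at large.

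The difference of OSKM cells from 2iL cells also depended on the cell type for part of the genes. In 1 fit of the 16 pluripotent libraries, a comparison added after the data were seen, the iPSC difference minus the ESC difference was positive in 27 of the 30 genes, with 13 called higher and 0 lower (8.67% and 5.55% of all genes) and a median of 0.36 against 0.06 for all genes tested. The 2iL-iPSCs were at the level of 2iL-ESCs on day 18 for several of them. Srebf1, for example, was 18.4 and 18.9 FPKM in 2iL-iPSCs, beside 17.4 and 18.4 in 2iL-ESCs on day 18 and 38.5 and 37.9 on day 25. Scd1 was 24.6 and 27.4 in 2iL-iPSCs, and 26.2 and 28.97 in 2iL-ESCs on day 18. Scd1 and Scd2 differed in sign between the cell types, with -0.51 and -0.35 in ESCs and 0.59 and 0.59 in iPSCs, though only the ESC difference of Scd1 passed on its own. Without 2iL-iPSC clone 3, 6 genes were called higher. Strain, passage and derivation differ between ESCs and iPSCs, and cannot be told apart from the cell type. The uncertain daily medium of the 2iL-iPSCs limits this comparison too.

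Against MEF cells, which grew in serum, OSKM-iPSCs had 15 higher and 1 lower of the 30 genes, where 34% of all genes were higher and 26.4% lower. The higher genes included Dhcr7 (1.88 ± 0.13 SE, adjusted p = 0.00158), Pmvk (1.62 ± 0.11 SE, adjusted p = 0.00156), Srebf2 (1.19 ± 0.13 SE, adjusted p = 0.00326), Elovl6 (1.15 ± 0.13 SE, adjusted p = 0.00369) and Hmgcs1 (1.12 ± 0.15 SE, adjusted p = 0.00514), and the lower gene was Insig2 (-1.23 ± 0.13 SE, adjusted p = 0.00329). Their median difference was 0.63, against 0.19 for all genes. By role, 4 of 6 mevalonate genes, 3 of 3 from squalene to lanosterol and 2 of 8 from lanosterol to cholesterol were higher. Without MEF library 1 the median was 0.698, against 0.195 for all genes, and without MEF library 2 it was 0.466 against 0.193. Without OSKM-iPSC clone 1 it was 0.518 against 0.162. Calls with a lone sample in a group say little about these genes in particular. Under median-ratio scaling 7 were lower, and the share of all genes in that setting is not given here.

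2iL-iPSCs had 9 higher and 11 lower genes than MEF cells, where 40.6% and 37.4% of all genes were called, and their median was -0.02 against 0.09. The genes from lanosterol to cholesterol divided most clearly, with Ebp (1.37 ± 0.09 SE, adjusted p = 0.000172), Dhcr7 (1.27 ± 0.11 SE, adjusted p = 0.000353) and Tm7sf2 (1.04 ± 0.17 SE, adjusted p = 0.00361) higher and Hsd17b7 (-2.02 ± 0.19 SE, adjusted p = 0.00045), Msmo1 (-1.23 ± 0.09 SE, adjusted p = 0.000243), Sc5d (-1.11 ± 0.12 SE, adjusted p = 0.000678), Cyp51 (-0.89 ± 0.09 SE, adjusted p = 0.000689) and Nsdhl (-0.76 ± 0.22 SE, adjusted p = 0.0248) lower. In fatty acid synthesis, Elovl6 (1.44), Acly (0.72) and Fasn (0.61) were higher and Scd1 (-0.85) and Scd2 (-0.45) lower. Without MEF library 1 the median was 0.0283, against 0.107 for all genes, and without MEF library 2 it was -0.0849 against 0.115. Both comparisons use the same 2 MEF libraries, so their values stand side by side only as descriptions. Hmgcs1 differed from MEF cells by 1.12 in OSKM-iPSCs, while its 0.34 ± 0.13 SE in 2iL-iPSCs did not pass (adjusted p = 0.0571, limma). For Hsd17b7, -0.67 ± 0.24 SE in OSKM-iPSCs did not pass (adjusted p = 0.0708), and the difference in 2iL-iPSCs was -2.02.

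**Figure D5:**
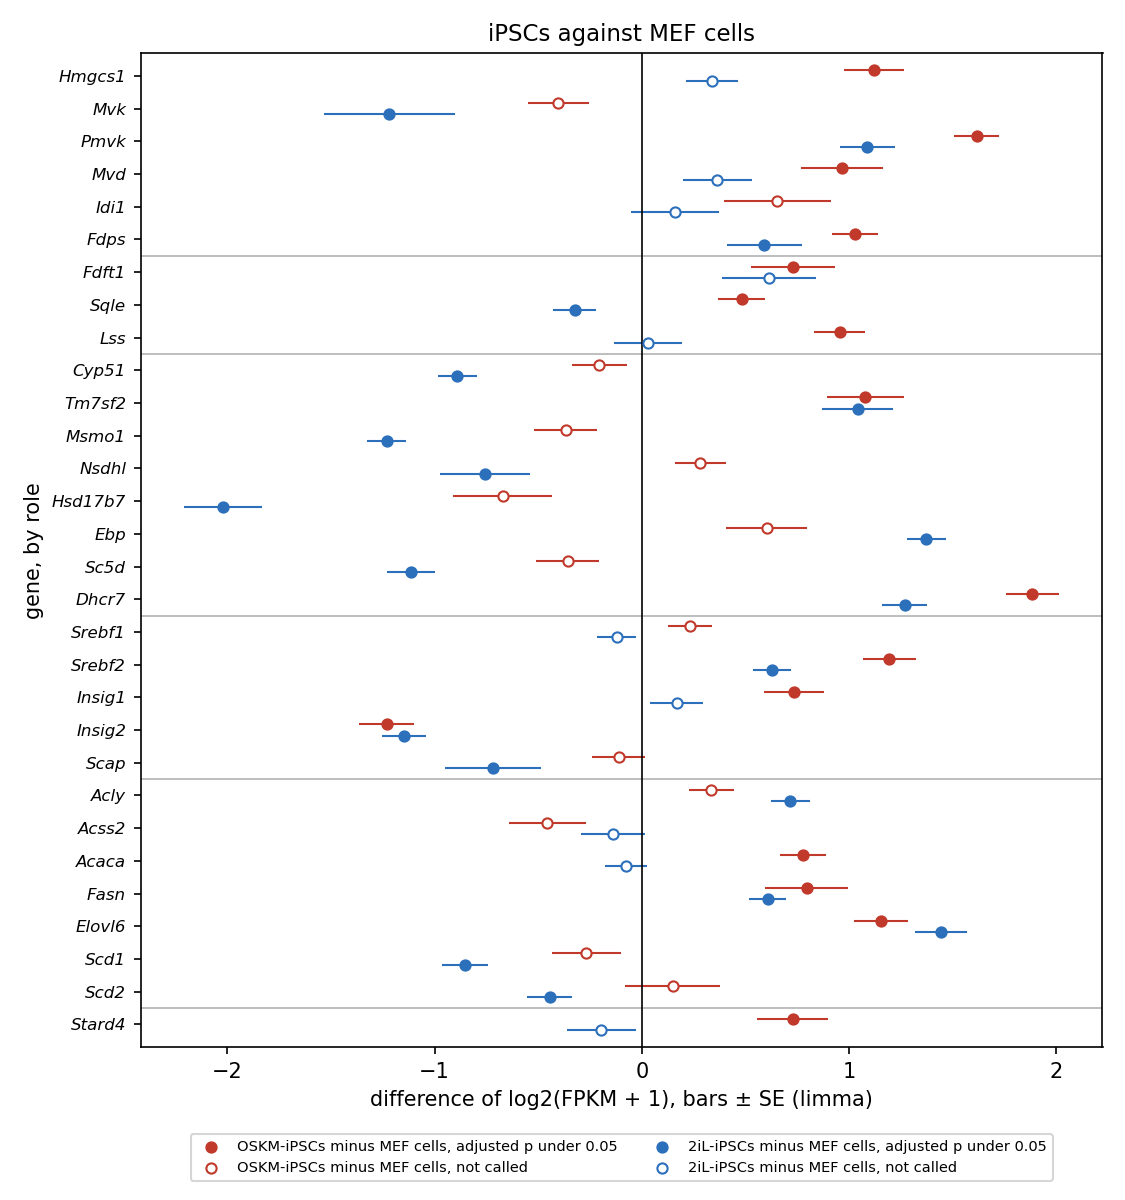
Difference of OSKM-iPSCs and of 2iL-iPSCs from the same 2 MEF libraries for each of the 30 genes (rows, by role), in log2(FPKM + 1), with bars of ± SE and filled symbols at an adjusted p under 0.05. Dhcr7, Pmvk, Elovl6 and Tm7sf2 lie to the right of 0 in both, Insig2 to the left in both, and Hsd17b7 farthest to the left in 2iL-iPSCs (-2.02).

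Neighbouring pathways were read from other gene lists in the same ESC comparison, where 29.5% of all genes tested were higher and 24.4% lower. Of 12 genes of sterol uptake, efflux and storage, 9 were tested, 4 were higher and 5 lower. Soat1, which esterifies cholesterol for storage, was higher by 1.58 ± 0.11 SE, adjusted p = 2.49e-07, with 11.5 to 16.9 FPKM with a median of 13.4 against 2.88 to 4.94 FPKM with a median of 3.98. Lrp8, a lipoprotein receptor, was higher by 1.59 ± 0.18 SE, adjusted p = 1.27e-05, with 8.10 to 19.4 FPKM with a median of 11.01 against 2.42 to 4.59 FPKM with a median of 3.36. Apoe, the lipoprotein ligand, was lower, with a difference of -1.17 ± 0.24 SE, adjusted p = 0.00159, with 176 to 406 FPKM with a median of 221 against 402 to 855 FPKM with a median of 522, and its levels overlapped through day 18. In the supply of acetyl-CoA and NADPH 2 of 7 were higher and 2 lower, in elongation, desaturation and lipid assembly 3 of 12 and 2, and in the non-sterol isoprenoid branch 2 of 6 and 3. Of 10 genes of fatty acid oxidation, 9 were tested, 2 were higher and 4 lower. Cpt1a, which admits fatty acids to mitochondria, was lower, with a difference of -2.13 ± 0.20 SE, adjusted p = 3.48e-06, with 4.25 to 12.3 FPKM with a median of 9.67 against 25.6 to 55.4 FPKM with a median of 38.6, and Acadl, a long-chain acyl-CoA dehydrogenase, was higher by 1.07 ± 0.16 SE, adjusted p = 0.000122. In the 2 MEF libraries, Soat1 was at 19.5 and 20.4 FPKM, Acadl at 24.9 and 24.7, and Cpt1a at 29.4 and 29.9. The part of fibroblast RNA in these differences was not tested.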

How the data were processed

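The authors aligned reads with STAR 2.7.1a to GRCm38 (mm10), retained reads with a unique position and quantified genes with StringTie 2.0. The deposited FPKM values are normalized to transcript length and mapped fragments. The deposited coverage is the signal per base, and the deposited TPM is FPKM rescaled to a common total (usable in 16 libraries, difference at most 0.00255). The authors' Cuffdiff 2.2.1 comparisons need reads and were not used. Of 55471 genes, 2 with a failed value were left out and 11 repeated identifiers were summed, which left 55469. An FPKM above 1 was reached by 11303 to 12095 genes of a library. No replicate pair had identical values. Strandedness of the counting is not given in the sources used here.

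limma 3.58.1 in R 4.3.3 (lmFit and trended eBayes) modelled log2(FPKM + 1) of all genes that exceeded an FPKM of 1 in any library compared, which all 30 genes passed. A fold on this scale understates changes of low genes. Adjusted p-values (Benjamini-Hochberg) cover all genes tested. Only the groups compared entered each fit, with day as a covariate in ESCs, and day, medium and their interaction in the interaction test. The procedure was also run on simulated data, with independent normal noise and shifts larger than most differences given here. That run does not bear on calls of small differences. Alternatives were a pseudocount of 0.1, 2 other filters, median-ratio scaling, quantile normalization, TPM, no trend, 1 fit of all 9 conditions, a replicate block and leaving out each library. Leaving out a day and the comparison of iPSC with ESC differences were added after seeing the data. Values in every library are given for genes past an absolute log2 difference of 1 in ESCs, genes that passed the interaction, and regulators. From other lists, genes at 1 or more were named, at most 3 per list and direction. The list of SREBP processing genes is not reported here. The genes and lists were chosen with earlier results of these data known. No source states that replicate cultures were independent, so p-values measure the spread between these libraries, which may be technical. The labels hold no batch or date. Positions came from the files, and promoter sequences from RefSeq on GRCm38.p6. Figures used Python 3.11.15 and matplotlib 3.10.9.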

Additional observations from a re-analysis of the deposited data

Results flagged for a closer look

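The difference between OSKM-ESCs and 2iL-ESCs varied with the day for 16 of the 30 genes (medium by day interaction, limma, adjusted p between 0.000836 and 0.0413). Of all genes tested, 37.9% passed. The span between the lowest and the highest log2 difference of the 3 days was as follows among the sterol genes and Stard4: Hmgcs1 0.451, Mvk 0.46, Pmvk 0.68, Sqle 0.456, Cyp51 0.786, Msmo1 1.11, Ebp 0.738, Sc5d 0.713 and Stard4 0.97. Among the regulators it was Insig1 0.764 and Insig2 0.603, and among the fatty acid genes Acaca 0.416, Scd1 0.857, Scd2 1.11, Elovl6 0.553 and Acss2 0.843.

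The difference of OSKM cells minus 2iL cells was higher in iPSCs than in ESCs for 13 genes. They passed in 1 limma fit of 16 libraries, with adjusted p between 0.000539 and 0.0398. The iPSC difference minus the ESC difference, on the log2 scale, was among the sterol genes Mvd 0.78, Lss 0.72, Tm7sf2 0.769, Msmo1 0.793, Nsdhl 0.795 and Dhcr7 0.768. Among the regulators it was Srebf1 0.512, Srebf2 0.737 and Insig1 0.485, and among the fatty acid genes Acaca 0.896, Scd1 1.09, Scd2 0.945 and Acss2 0.645. Each condition had 2 libraries, too few to search for an outlying library.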

How the results depend on the processing

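The ESC counts of 11 higher and 6 lower genes stayed within 1.5 times under a pseudocount of 0.1, other filters, TPM, quantile normalization, median-ratio scaling, no trend in limma and 1 fit of all 9 conditions. The number of higher genes fell to 7 with day 18 left out and to 7 with day 38 left out, and was 12 with day 25 left out. With each culture left out in turn it was 9 to 12, and the lower genes numbered 6 to 10. Same-numbered cultures did not deviate together (r = 0.131 on day 18, 0.0904 on day 25 and 0.012 on day 38), so the shared numbers were not read as pairs. With the replicate block 10 genes were higher and 6 lower. No call changed direction under any alternative.

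The iPSC counts were 4 higher and 0 lower. Higher genes numbered 0 without a filter, 1 under median-ratio scaling, 0 without trend and 21, with 3 lower, in 1 fit of all 9 conditions. With each clone left out they numbered 0 to 4, and lower genes 0 to 1. For OSKM-iPSCs against MEF cells, 7 genes were lower under median-ratio scaling, 3 under quantile normalization and 4 in 1 fit of all 9 conditions. Leaving out each library gave 0 to 14 higher and 0 to 5 lower. For 2iL-iPSCs against MEF cells, 7 were lower without a filter, and leaving out each library gave 6 to 8 higher and 6 to 9 lower. Over days in OSKM-ESCs, 9 genes passed without a filter. The comparison of the iPSC and ESC differences gave 6 to 15 higher and 0 to 1 lower genes with each library left out. Where a clone or library was left out, the lone sample was taken to vary like the rest. The causes of these shifts were not tested. Since the depth in reads is unknown, no counting error could be given, and the precision rests on 2 libraries per condition.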
